A study of Caenorhabditis elegans with 6 samples.

Results

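Many genes whose messenger RNAs were recovered with ADR-1 carried not one but several separate clusters of CLIP reads annotated to a 3' UTR. These arrays are described here, and whether the clusters of a gene share one 3' UTR was not tested. The list of uniquely annotated, significant clusters holds 636 clusters, of which 431 lie in the 3' UTR of a protein-coding gene. A gene was taken as carrying an array where at least 2 such clusters bore its WBGene identifier and where the authors gave the 3' UTR as the only location. This gave 305 clusters in 106 genes, while the other 126 genes with a 3' UTR cluster had a single one. Each of the 305 clusters was annotated as lying wholly (100%) in a 3' UTR on its own strand. Every cluster had entered the list because its CLIP count exceeded its input count in the authors' tests, so that excess is described below and is not tested.

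ADR-1 is a protein of the ADAR family, which binds double-stranded RNA, and it affects where the active enzyme ADR-2 converts adenosine to inosine. In C. elegans, edited adenosines are known from 3' UTRs in which inverted repeats can pair, and proteins with double-stranded RNA binding domains contact such duplexes with little regard to sequence. A cluster, as the caller used here defines it, is a stretch where CLIP reads pile up above the rest of the transcript.

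All libraries came from whole, unsynchronized animals of the 3xFLAG ADR-1 strain (HAH59), grown on E. coli OP50 at 20 °C. For CLIP, proteins are fixed to the RNA they touch with ultraviolet light (here 3 J/cm2), and the RNA is trimmed with RNase I (150 units on 5 mg of lysate) and recovered with the tagged protein on anti-FLAG beads, with an on-bead ligation for double-stranded RNA before sequencing. The groups were 3 CLIP libraries and 3 input libraries, each input being 2% of a digested lysate set aside before the beads. No library of an untagged strain was used here, so reads held by ADR-1 and reads held by the beads cannot be told apart. Both groups carry the tag, and nothing in the labels says whether the 3 replicates were separate cultures, so spreads between replicates can be technical. In whole animals, more cells that make a messenger and more of it per cell cannot be told apart either.

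The library totals recovered from the deposited statistics were 5775120, 5799615 and 5779454 reads for CLIP replicates 1, 2 and 3, and 4157828, 2486655 and 4251271 for the inputs. Of these totals, 0.940% (54313 reads, 95% Wilson interval 0.933 to 0.948), 0.196% (11363 reads, 0.192 to 0.200) and 0.584% (33743 reads, 0.578 to 0.590) lay in array clusters for CLIP replicates 1, 2 and 3. Array clusters held 614, 599 and 603 input reads. These intervals cover counting error only. CLIP replicate 2 had the fewest reads in 104 of 106 arrays and 292 of 305 clusters, and the input counts, mostly 1 or 2 reads a cluster, limit the precision of any ratio. No deposited count is 0, so a count of 1 may stand for 0.

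Arrays were mostly short. Of the 106 genes, 61 had 2 clusters, 15 had 3, 16 had 4, 11 had 5, 2 had 6 and 1 had 7. From the outer edge of the first cluster to that of the last, an array spanned a median of 407.5 bases (quartiles 247.75 and 619), and 97 of 106 arrays spanned at most 1000 bases. The median span was 274 bases for 2 clusters, 501 for 3 or 4, and 822.5 for 5 to 7. Clusters covered a median of 61.8% of the span (quartiles 47.2 and 81.7). The smallest array was that of M28.10, at 106 bases, followed by eif-3.I, a subunit gene of translation initiation factor 3, at 116 and akap-1, which encodes an anchoring protein for protein kinase A, at 137.

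Neighbouring clusters lay close together. Over 199 neighbouring pairs, the gap had a median of 60 bases (quartiles 21.5 and 142.5), and centres lay a median of 157 bases apart. The gap was at most 20 bases in 47 pairs, at most 100 in 128 and at most 200 in 168, and it exceeded 500 in 6. Gaps were smaller where clusters were more numerous, with medians of 86, 58 and 47 bases in arrays of 2, of 3 or 4 and of 5 to 7. The most densely covered array was that of rgs-4, a regulator of G protein signalling, whose clusters lay 2 bases apart and filled 98.8% of a span of 165 bases. The widest gap, of 7929 bases, was in Y50D7A.3. Y50D7A.3 (WBGene00021753, named phkg-1 in RefSeq, a phosphorylase kinase subunit gene) is also the weakest of the arrays named here in CLIP replicate 2, where its clusters had 1 read each against 29 and 58 in replicate 1 and 15 and 29 in replicate 3. Its clusters had library-scaled log2 ratios of 1.39 ± 2.81 and 1.83 ± 3.24 (SD, n = 3), means within their spread.

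**Figure D1:**
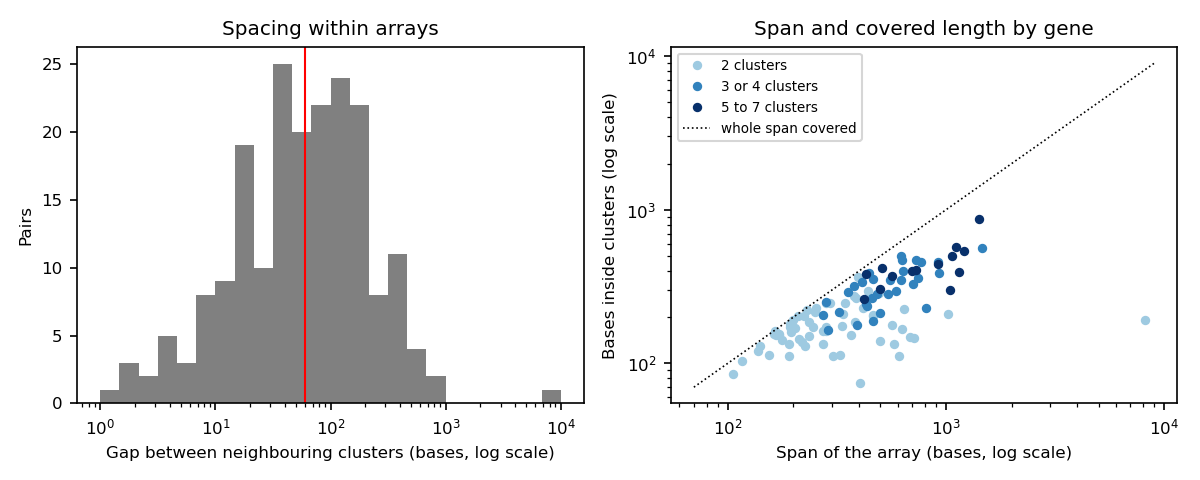
Left, number of neighbouring pairs by the gap between them in bases (log scale), with the median of 60 bases in red; right, bases inside clusters against the span of each of the 106 arrays (both log scales), coloured by cluster number, with a dotted line where the whole span would be covered. Most gaps lie under 200 bases, and the single array far to the right is Y50D7A.3, with a span of 8122 bases.

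Array clusters had a median width of 81 bases (quartiles 62 and 110, range 7 to 267), and single clusters one of 96.5 (quartiles 77 and 126). Only 6 array clusters were under 30 bases wide. They lay in ttc-7 (7 bases), H43I07.1 (18), F40G9.17 (19), F58D5.5 (22), K02F3.2 (23) and Y71F9AL.10 (25). The widest, of 267 bases, was the middle cluster of scyl-1, a gene for a SCY1-like pseudokinase, with 193, 40 and 225 CLIP reads.

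Start positions of the 3' UTRs are not in the files used here, so place along the UTR was measured from the 3' end of the gene in RefSeq. The 3' edge of an array lay a median of 213 bases before that end (quartiles 102.5 and 326), and its 5' edge 689.5 bases before it (452 and 938.75). Of the 106 arrays, 24 reached within 100 bases of the end and 13 stopped more than 500 bases short of it. Single clusters lay a median of 247.5 bases (135.25 and 417.5) from their 3' edge to the gene end. The array value is that of the cluster nearest the end in each gene, so it is not a like measure. Over all 305 array clusters, the median from 3' edge to gene end was 415 bases (248 and 708). More clusters meant a longer stretch towards the coding region, since the 5' edge lay 468, 824 and 1166.5 bases from the end in arrays of 2, of 3 or 4 and of 5 to 7. The arrays of rab-18 and ncbp-2 lay wholly beyond the RefSeq end. The arrays nearest to and farthest from the end among the 14 largest were those of npp-25, a nuclear pore gene, at 23 bases and of F58D5.5 at 927 bases.

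**Figure D2:**
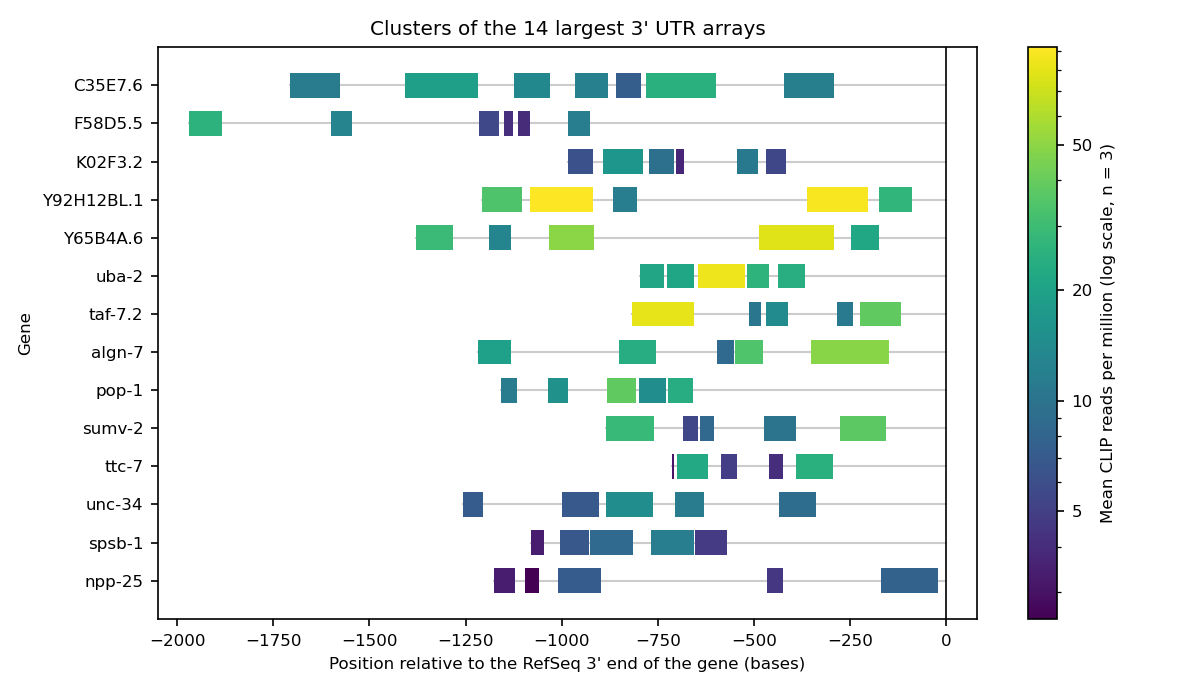
Clusters of the 14 genes with 5 or more, drawn to scale by their distance in bases from the RefSeq 3' end of the gene (vertical line at 0), with the 5' end to the left. Colour gives the mean CLIP reads per 1000000 reads of the recovered library totals over 3 replicates (log scale), and it varies between neighbouring clusters of one gene, as in taf-7.2, whose first cluster is far brighter than the 3 after it.

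The 14 genes with 5 or more clusters held 26.0, 25.8 and 25.9% of the CLIP reads of all arrays in replicates 1, 2 and 3. The longest series was that of C35E7.6 (WBGene00016458, chromosome I, plus strand), a known editing substrate with 7 clusters over 1415 bases. Read from its 5' end, its clusters had 103, 174, 148, 129, 64, 231 and 123 reads in CLIP replicate 1. The counts were 14, 35, 38, 17, 14, 57 and 9 in replicate 2, and ran from 49 in cluster 5 to 141 in cluster 6 in replicate 3. Cluster 6 led in all 3 libraries, with 26.5 ± 3.93% of the array's reads (SD, n = 3), and no cluster held most of them.

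Other large arrays were led by one cluster when reads were counted per cluster, with no correction for width. In taf-7.2 (WBGene00006389, chromosome III, 12670808 to 12671506, minus strand), which encodes a subunit of the general transcription factor TFIID, the cluster nearest the coding region had 803, 143 and 448 CLIP reads, or 50.4 ± 4.36% of the array. The next 3 clusters had between 92 and 120 reads in replicate 1, 21 and 25 in replicate 2 and 67 and 104 in replicate 3, and the last had 339, 88 and 241. Reads per cluster thus dipped between both ends in every library, with cluster widths of 31 to 162 bases. In uba-2 (WBGene00006700, chromosome I, 12748765 to 12749194, plus strand), a subunit gene of the SUMO-activating enzyme, 5 clusters were packed into 429 bases with gaps of at most 21. Its middle cluster had 713, 135 and 607 CLIP reads, against 201 to 284, 32 to 40 and 92 to 151 in the other 4, and held 48.8 ± 6.39% of the reads (SD, n = 3). Input counts in that cluster were 1, 2 and 1, and its log2 ratio was 6.70 ± 2.10 (SD, n = 3), against means of 4.04 to 4.89 in the others. The middle cluster was described because it is the highest, so its lead over the other 4 in each CLIP library is a ranking and not a test.

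pop-1 (WBGene00004077, chromosome I, 2822891 to 2823389, minus strand), which encodes the TCF protein through which Wnt signals reach their target genes, also peaked in the middle. Cluster 3 of 5 led with 340, 116 and 212 CLIP reads (41.1 ± 8.46% of the array; SD, n = 3), and cluster 5 followed with 262, 52 and 100. The remaining 3 had at most 169, 27 and 74. Y92H12BL.1 (WBGene00022363, chromosome I, 1358436 to 1359553, plus strand) had a pair of strong clusters instead. Cluster 2 had 820, 176 and 604 reads and cluster 4 had 857, 114 and 581, with 112, 30 and 58 in the one between them. Which of both was higher changed between libraries. Y65B4A.6 (WBGene00022029, chromosome I, 629640 to 630845, minus strand), named eif-4A3 in RefSeq and encoding a helicase of the exon junction complex, was led by cluster 4 with 787, 118 and 434 reads, ahead of cluster 3 with 503, 82 and 271.

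In sumv-2 (chromosome V, plus strand) and ttc-7 (chromosome III, plus strand), reads per cluster were high in 2 clusters and low in the others. These counts are not per base, and cluster widths ran from 36 to 126 bases in sumv-2 and from 7 to 97 in ttc-7. The outermost clusters of sumv-2 had 249, 57 and 188 reads at the 5' end and 354, 57 and 238 at the 3' end, and its 3 inner ones at most 103, 25 and 46. In ttc-7 cluster 2 had 206, 36 and 142 reads and cluster 5 had 243, 43 and 144, while the other 3 had at most 41, 15 and 28. All 15 input counts of ttc-7 were 1, so differences between its ratios rest on the CLIP reads alone. In 14 of the 106 arrays no input count exceeded 1.

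algn-7 (chromosome V, minus strand), a gene of asparagine-linked glycosylation, had 391, 82 and 373 reads in its last cluster and 299, 86 and 207 in the one before it. F58D5.5 (chromosome I, plus strand) was highest at its 5' end, with 260, 68 and 114 reads (38.8 ± 3.63% of the array; SD, n = 3), and had at most 45, 21 and 30 in clusters 3 to 5. The second cluster of K02F3.2 (chromosome III, plus strand) led with 156, 47 and 86. The flattest of the large arrays was that of unc-34, the Enabled gene of actin-based motility, whose clusters differed by at most 2.14 times in mean scaled CLIP reads. The clusters of spsb-1, a gene with SPRY and SOCS box domains, ranged from 29 to 127 reads in replicate 1, and npp-25 had the fewest reads of the 14, with 1 to 20 a cluster in replicate 2.

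**Figure D3:**
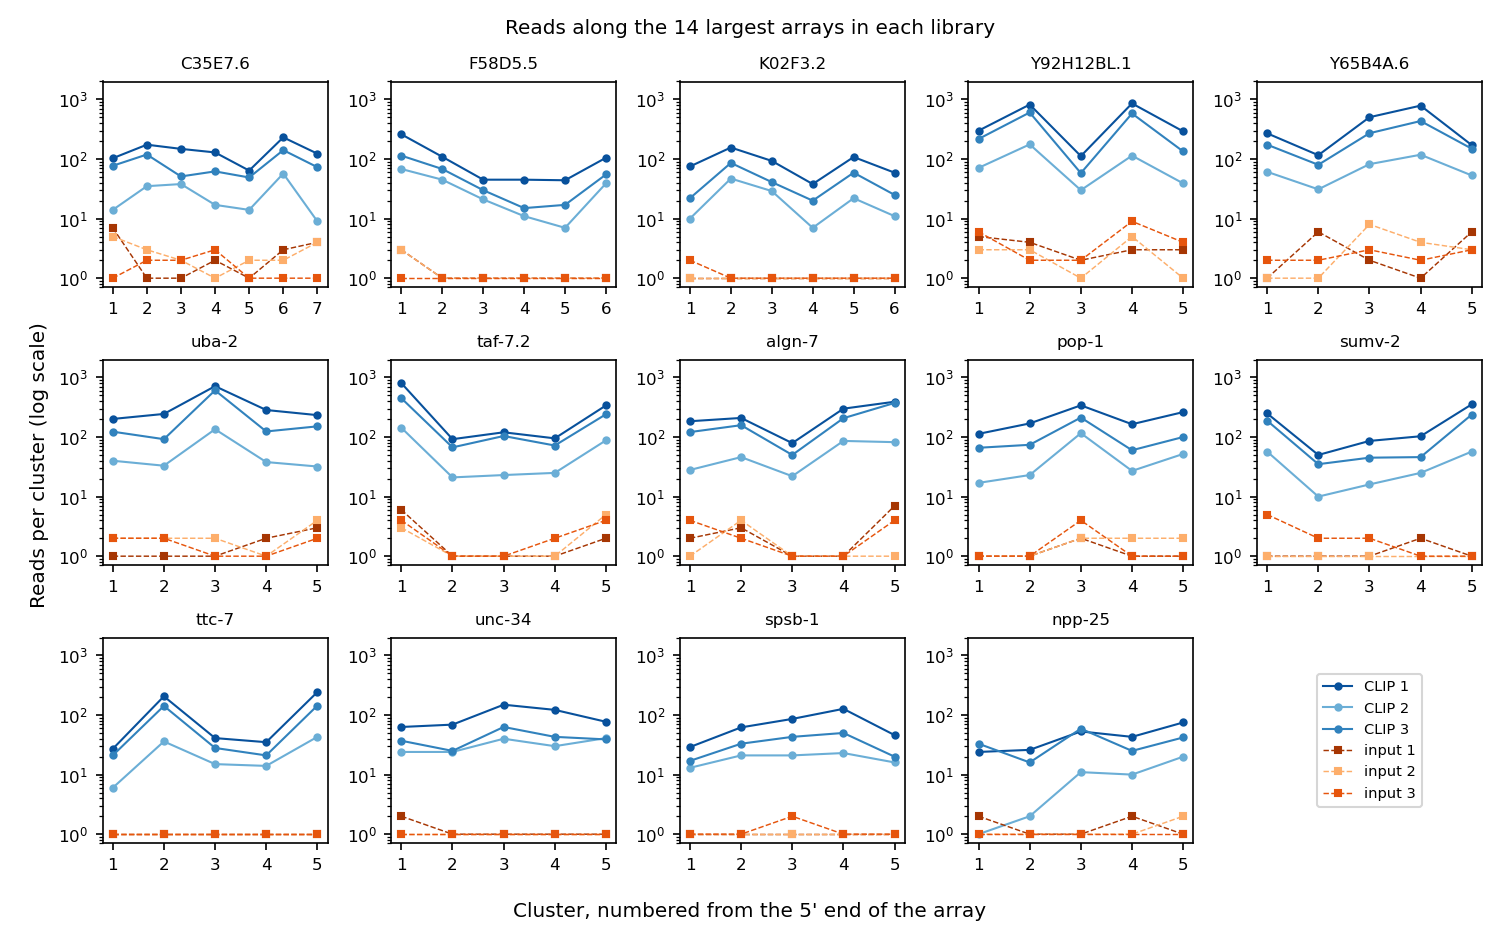
Reads per cluster (log scale) in the 3 CLIP libraries (blue, solid) and the 3 input libraries (orange, dashed) for the 14 largest arrays, with clusters numbered from the 5' end. The CLIP lines of one gene run roughly parallel, with replicate 2 lowest except at cluster 5 of unc-34 (41 reads against 39 in replicate 3), and lie above the input lines, most of whose points are at 1 read, apart from the first cluster of npp-25, where CLIP replicate 2 had 1 read.

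Among all arrays, the highest cluster had a median of 1.95 times the mean CLIP reads of the lowest, scaled for library totals (range 1.01 to 9.56), at 1.91, 2.04 and 2.07 in replicates 1, 2 and 3. This ratio was under 2 in 57 of 106 arrays and 10 or more in 0. It was 1.53, 2.93 and 5.02 in arrays of 2, of 3 or 4 and of 5 to 7, and a larger array has more clusters from which a highest and a lowest can be drawn. Input reads averaged over the libraries differed by a median of 1.46 times, but by 2 times in each single input, where most counts are 1 or 2, so arrays were not shown to be more uneven in CLIP than in input. The most uneven arrays, at 9.56 to 7.91 times, were those of H43I07.1, Y92H12BL.1, sqv-6, ttc-7 and Y71F9AL.10. In H43I07.1 the low cluster is 18 bases wide and had 23, 10 and 26 reads, against 275, 64 and 225 in the first. The most even were cogc-1, which encodes a subunit of the Golgi COG complex, Y53G8AR.9 and rgs-4, at 1.01, 1.02 and 1.02 times.

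sqv-6 (WBGene00005024, chromosome V, 950644 to 951076, minus strand), a xylosyltransferase gene of proteoglycan synthesis, had the same order of clusters in each library. Its first cluster had 585, 120 and 301 reads, its middle one 71, 17 and 38 and its last 215, 46 and 103, and the first held 66.9 ± 1.28% of the array in 3 replicates. epg-3 (WBGene00012559, chromosome III, 12940936 to 12941961, plus strand), an autophagy gene, had clusters 816 bases apart with 183, 39 and 114 reads upstream and 743, 113 and 530 downstream, the latter 79.0 ± 4.13% of the total (SD, n = 3).

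Counted by reads per cluster, the strongest cluster of an array was kept between libraries in most genes. The cluster with the most CLIP reads was the same in all 3 CLIP libraries in 67 of 106 arrays, and in replicates 1 and 3 in 85. By size, it was the same in all 3 in 41 of 61 arrays of 2, 17 of 31 of 3 or 4 and 9 of 14 of 5 to 7. Cluster widths are the same in every library. Per base of width, the highest cluster was the same in all 3 in 56 of 106 arrays. The cluster with the highest log2 ratio was the same in all 3 in 48 of 106. Over the 363 pairs of clusters within one array, 301 kept their order between replicates 1 and 2, 317 between 1 and 3, and 284 between 2 and 3. The strongest cluster of an array of 2 held a median of 59.5 to 60.2% of its CLIP reads in the 3 replicates, and that of an array of 5 or more 36.2, 36.5 and 38.6%. Within one gene this share differed between replicates by a median of 8.18 percentage points (range 1.28 to 40.9).

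Clusters of one gene resembled each other more than clusters of different genes did. Variance components were estimated with the part that scatter within genes adds to gene means taken off, so that unrelated values give about 0. For log2 scaled CLIP reads over the 305 clusters, 66.4% of the variance lay between genes, at 67.0, 61.3 and 65.1% in replicates 1, 2 and 3. Per base of cluster width, 84.2% lay between genes, against 19.4% of the variance of width itself. The figure was 52.5% for input reads averaged over the libraries, with 36.9, 32.5 and 44.5% in single inputs, and 60.4% for the log2 ratio. Whether a transcript level common to the clusters of one gene accounts for these shares was not tested. Input counts, mostly 1 or 2, cannot resolve differences between clusters of one gene.

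Much of the difference within an array went with cluster width. Among 359 pairs of clusters of one gene that differed in width, the wider had more mean scaled CLIP reads in 300 (83.6%), and in 80.8, 77.7 and 83.0% in replicates 1, 2 and 3. Where the wider was at least 1.5 times as wide, this held in 181 of 186 pairs. Per base of width, the wider cluster was higher in 199 of 359 pairs (55.4%). In input, the wider had more mean reads in 181 pairs, fewer in 89 and as many in 89. Edges and counts both come from the same CLIP reads, so width and reads are not independent measures.

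**Figure D4:**
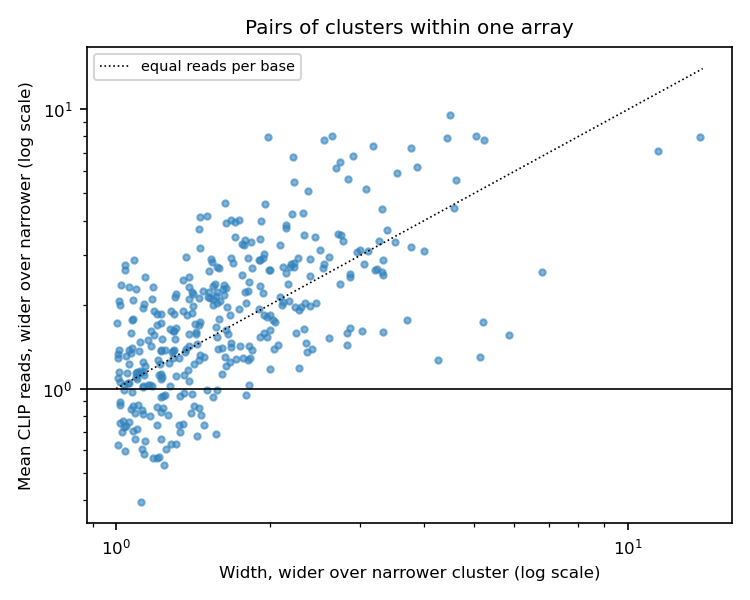
Pairs of clusters within one array: width of the wider over the narrower cluster (x, log scale) against their ratio of mean scaled CLIP reads (y, log scale, n = 3 libraries); the dotted line marks equal reads per base and the horizontal line equal reads. Of 359 pairs, 300 lie above the horizontal line, and points scatter about the dotted one.

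The strongest cluster was found at either end of an array and between them. In arrays of 2, the stronger cluster was the 5' one in 28 genes and the 3' one in 33. In the 45 arrays of 3 or more, it was the first in 8, the last in 16 and an inner one in 21. Per base of width, the 3'-most minus the 5'-most cluster gave median log2 differences in CLIP reads of -0.04, 0.02 and -0.01 in replicates 1, 2 and 3 over the 106 arrays. The mean was -0.01 ± 0.03 (SD, n = 3), with p = 0.75 in an exact two-sided sign-flip permutation test, which cannot go below 0.25 with 3 libraries and so cannot show a difference. The 3' cluster was the higher in 50, 54 and 52 of 106 arrays. By reads per cluster the mean difference was 0.12 ± 0.08, and by log2 ratio 0.15 ± 0.11 (SD, n = 3), each higher at the 3' end in 3 of 3 replicates and each at the smallest p of 0.25 in the exact test. Per base of width, the difference in input reads was -0.09, -0.20 and -0.20 on the log2 scale in replicates 1, 2 and 3. These input values belong beside the per-base CLIP values and not beside those per cluster, and most input counts are 1 or 2. Between neighbours, the absolute log2 difference in mean scaled CLIP reads had a median of 0.78 for gaps up to 60 bases and 0.76 for wider ones.

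Scaled for library totals, with 1 read added to each count, array clusters had median log2 ratios of CLIP over input of 4.77, 2.03 and 4.11 in replicates 1, 2 and 3. All 305 ratios were above 0 in replicates 1 and 3, and 288 in replicate 2. The median SD of a cluster's ratio over its replicates was 1.52. Much of this is a shift shared by all clusters of a library, and the difference in ratio between 2 clusters of one array had a median SD over replicates of 0.56 (363 pairs). Within an array, the highest mean ratio exceeded the lowest by a median of 0.84, and by 0.98, 1.00 and 1.05 in replicates 1, 2 and 3. The cluster with the most CLIP reads also had the highest mean ratio in 86 of 106 arrays, and in 13 of the 14 largest.

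In the 2 arrays with the most input reads, gmn-1 and lem-2, the orders of clusters by CLIP reads and by ratio differed. gmn-1 (WBGene00013552, chromosome III, 12223992 to 12224629, minus strand), the geminin gene of replication licensing, had the most input reads of any array, 95 in all. Its first and last clusters had 742, 139 and 503 and 801, 141 and 473 CLIP reads, with 13, 21 and 9 and 10, 17 and 11 input reads. Cluster 3 had 376, 85 and 172 CLIP reads but 2, 1 and 2 input reads. It had the highest ratio, 5.37 ± 1.15, against 3.97 ± 2.19 and 4.11 ± 2.08 for the first and last (SD, n = 3). Within replicates 1, 2 and 3, cluster 3 exceeded the first by 1.24, 2.76 and 0.19 on the log2 scale, a mean of 1.40 ± 1.29 (SD, n = 3). It exceeded the last in each replicate as well. Cluster 3 was described because its ratio is the highest, so its lead is a ranking and not a test, and it rests on input counts of 1 or 2.

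lem-2 (WBGene00002275, chromosome II, 14065901 to 14066528, plus strand), an inner nuclear membrane gene, had the most CLIP reads, 5896 over 3 libraries and 3 clusters. Its clusters had 531, 117 and 389, then 1149, 184 and 716, then 1388, 306 and 1116 CLIP reads from 5' to 3', rising in each library. Their input counts were 8, 10 and 10, then 13, 2 and 7, then 16, 7 and 21, and their log2 ratios were 4.11 ± 1.69, 5.55 ± 0.72 and 5.05 ± 0.93 (SD, n = 3). In zig-11, a gene with immunoglobulin domains on the minus strand of chromosome V (1875747 to 1875902), the clusters had 670, 72 and 520 and 1516, 214 and 904 CLIP reads with at most 2 input reads. The second reached 7.47 ± 1.69 and the first 6.10 ± 2.40 (SD, n = 3).

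Several further arrays were rich in reads. eif-2alpha, a subunit gene of the factor that carries the initiator tRNA, had 760, 153 and 579 and 1031, 192 and 661 reads in its pair of clusters. Y54E10BR.2 had 1010, 208 and 757 in its second cluster and 406 to 447, 71 to 100 and 198 to 328 in the other 3. wve-1, a gene of the WAVE complex that promotes actin branching, had 579, 94 and 347, then 213, 35 and 153, then 885, 225 and 497, with its low cluster in the middle in each library.

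In the authors' deposited table, 185 of the 305 clusters (60.7%) had p under 0.05 in all 3 replicates, against a background of 46.2% of all 736 reproducible clusters. The loss lay in replicate 2, where 185 passed, while all 305 passed in replicates 1 and 3. All 126 single 3' UTR clusters passed in replicates 1 and 3 as well, and 45 in replicate 2. Passing in replicates 1 and 3 thus did not set arrays apart within the list. In 44 arrays every cluster passed in all 3 replicates, in 33 some did and in 29 none did, and 58 arrays kept at least 2 such clusters. In edgeR's quasi-likelihood test of CLIP against input with the recovered library totals, 231 array clusters had counts high enough to be tested and 231 were higher in CLIP at an adjusted p under 0.05, against a background of 97.2% of the reproducible clusters tested. With TMM scaling, which centres these enriched clusters near 0, 27 were higher and 6 lower, and with DESeq2 size factors 24 and 6. The clusters were chosen on this contrast, so nothing is read from either count.

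Array clusters had more reads than single ones. Their medians were 99, 22 and 57 CLIP reads in replicates 1, 2 and 3, against 55.5, 13 and 34.5 in the 126 single 3' UTR clusters, with input medians of 1, 1 and 1 against 1, 2 and 1. The difference in median log2 ratio was 0.84 ± 0.14 (SD, n = 3) and positive in 3 of 3 replicates. Taking the strongest cluster of each array alone, it was 1.22 ± 0.12 (SD, n = 3). Picking the highest of several clusters by itself raises this value, while single clusters were not picked in that way. Membership follows from the same CLIP and input counts, so no test was made. Altogether arrays held 76.8, 76.3 and 77.4% of the CLIP reads in protein-coding 3' UTR clusters of replicates 1, 2 and 3.

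Among all 290 protein-coding genes with a uniquely annotated cluster, 106 (36.6%) carried arrays. Of 14 known ADAR substrates, 9 had any cluster. Arrays were carried by 7 of them, C35E7.6, F58D5.5, Y75B8A.8, lam-2, lem-2, pop-1 and unc-64, with 27 clusters in all. alh-7 had a single 3' UTR cluster, and the remaining gene had none counted among the protein-coding 3' UTR clusters. The list was chosen with earlier results of these data known, so its share is not compared with the 36.6%. unc-64, which encodes syntaxin, had clusters of 67, 19 and 45 and of 76, 21 and 64 CLIP reads, 7 bases apart. Of 13 actin and motility genes, 4 had any cluster, with arrays in unc-34, wve-1 and act-4 and a single 3' UTR cluster in itsn-1. The clusters of act-4, an actin gene, had only 60, 28 and 36 and 39, 15 and 25 CLIP reads, with 2, 9 and 5 and 4, 1 and 4 input reads, and the first had a log2 ratio of 2.12 ± 1.78 (SD, n = 3).

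Arrays were found in 2 of 11 ubiquitin and SUMO genes (spsb-1 and uba-2), 2 of 12 glycosylation genes (algn-7 and sqv-6), 2 of 13 autophagy and traffic genes (epg-3 and unc-64) and 2 of 17 listed translation factor genes (Y65B4A.6 and eif-2alpha). The genes of these lists with any cluster numbered 3, 2, 3 and 4, and elc-1, eif-3.E and ife-3 had a single 3' UTR cluster. The lists are incomplete: eif-3.I, cogc-1 and rgs-4 carried arrays and are on none of them. These counts therefore do not measure how common arrays are in a class of genes. There was 1 in each of the lists of chaperones (dnj-20, of 10 genes), germline and small RNA genes (tra-1, of 14), redox and mitochondrial metabolism (trxr-1, of 9) and signalling (pop-1, of 19). Of these lists 4, 6, 3 and 3 genes had any cluster, and single 3' UTR clusters lay in cct-8, dnj-24 and hsp-6, in aco-2 and alh-7 and in sos-1. tra-1, the zinc finger gene of sex determination, had clusters of 161, 48 and 139 and of 150, 36 and 140 CLIP reads, nearly even in each library. trxr-1, the thioredoxin reductase gene, had 414, 89 and 158 upstream and 773, 198 and 364 downstream. In the germline list, 5 genes had a single cluster (cgh-1, gld-1, hrde-1, lin-41 and znfx-1). Among 5 marker genes each of intestine, muscle, neurons and germline and 4 of hypodermis, unc-64 alone carried an array, and the tables, which hold no clusters without CLIP enrichment, cannot show whether the others were expressed.

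By chromosome, arrays numbered 32 on I, 15 on II, 35 on III, 6 on IV, 15 on V and 3 on X, against 27, 22, 40, 19, 16 and 2 single clusters, and 60 of 106 arrays were on the plus strand. Besides their 3' UTR clusters, 10 of the 106 genes had 18 other clusters, 16 of them in introns. spsb-1 had 6 intron clusters, Y56A3A.2 had 3 and unc-34 had 2.

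In 6 arrays another array lay within 1000 bases on the opposite strand, forming 3 pairs of genes whose 3' UTRs face each other; these were chosen after their values were seen. On chromosome I, the array of Y71F9AL.10 on the plus strand (2869421 to 2869880) ended 370 bases before that of Y71F9AL.12 on the minus strand (2870250 to 2870480). The second cluster of Y71F9AL.10, its highest, had 222, 43 and 99 CLIP reads. The clusters of Y71F9AL.12 had 161, 16 and 77 and 154, 17 and 62, lower in each library than that cluster. The other clusters of Y71F9AL.10 had lower means than both of Y71F9AL.12. Their mean CLIP reads per 1000000 reads of the library totals were 7.09, 2.65 and 3.11, against 13.4 and 14.7 in Y71F9AL.12. On chromosome II, rgs-4 (12672014 to 12672179, plus strand) and Y38E10A.22 (12672858 to 12673291, minus strand) lay 679 bases apart. rgs-4 had 23, 7 and 15 and 21, 3 and 20 CLIP reads, fewer than the cluster of highest mean in Y38E10A.22 with 130, 17 and 51. The other clusters of Y38E10A.22 had 62, 16 and 60, then 44, 9 and 15, and then 31, 5 and 11. The lowest of these had more reads than either rgs-4 cluster in replicate 1 and fewer in replicate 3. The last pair was wac-1.1 (13358732 to 13359233, plus strand) and sptf-3 (13360176 to 13360459, minus strand), an Sp1-family transcription factor gene, 943 bases apart on chromosome I. wac-1.1 had its most reads, 140, 46 and 120, in the cluster nearest to sptf-3, whose clusters had 57, 10 and 44 and 21, 12 and 30. The other clusters of wac-1.1 had 32, 10 and 32 and 45, 8 and 40, between those of sptf-3 in replicates 1 and 3. Of the 126 single clusters, 4 had a cluster on the opposite strand within this distance.

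**Figure D5:**
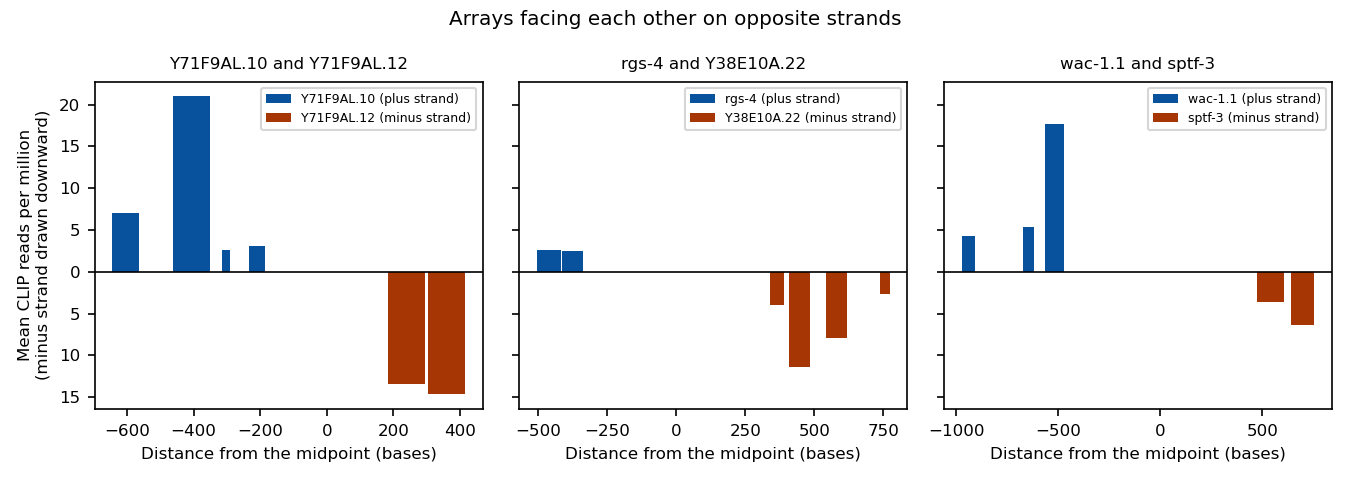
Mean CLIP reads per 1000000 reads of the recovered library totals (y, n = 3) of each cluster, drawn at its width by distance in bases from the midpoint between the facing arrays (x), for the 3 pairs of genes; plus-strand genes in blue point up and minus-strand genes in brown point down. The tallest plus-strand cluster lies at the inner edge in wac-1.1 and second from the outer edge in Y71F9AL.10.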

How the data were processed

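Raw read counts per cluster and library were deposited by the authors for 736 reproducible and 636 uniquely annotated clusters, with p-values, chi-square scores and log2 ratios per replicate. The submitters' processing notes name fastp 0.21.0, STAR 2.7.10b, ce11 and WBcel235, and clusters were called with CLIPPER, per the file captions. Positions are the deposited ones, and the sources do not say if the first base is 0 or 1. Width is end minus start.

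Library totals were recovered by fitting a Yates-corrected statistic to the deposited scores (88 of 88, 53 of 56 and 76 of 76 met within rounding in replicates 1, 2 and 3) and the deposited log2 ratios scaled for totals; the CLIP totals had standard errors of 0.0880, 2.52 and 0.200%. The CLIP totals differ by less than their errors, so they may not be separate measures of depth. Log2 ratios were computed per replicate after adding 1 read. The main test was edgeR 4.0.16 (glmQLFit, glmQLFTest, filterByExpr, Benjamini-Hochberg adjustment, threshold 0.05) on all 736 clusters with these totals and no block; the script was tested on simulated data. TMM was not the main scaling, because the tables hold enriched clusters only. DESeq2 1.42.0 was an alternative, and other values were computed in Python 3.11.15 with scipy 1.17.1. CLIP and input libraries of one number share a lysate per the labels' protocols, and their deviations from the group means correlated at 0.28, 0.12 and 0.01. Of the 106 genes, 102 matched a RefSeq symbol (WBcel235) and 4 a locus tag.

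Named are 38 genes: those with 5 or more clusters, the 5 greatest and 3 smallest spans, the 5 most and 3 least uneven arrays, the 5 with most CLIP and with most input reads, and up to 4 members of each gene list. Genes of the narrowest clusters, of the facing pairs and beyond the RefSeq end, and those with intron clusters, were named after their values were seen. The members and lists were chosen with earlier results of these data known. Inverted repeats within arrays were to be searched for, but no genome was used here.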

Additional observations from a re-analysis of the deposited data

How the results depend on the processing

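Scaling decided the count of edgeR calls among array clusters: it was 231 with the recovered totals, 27 with TMM (6 lower) and 24 with DESeq2 size factors (6 lower), which both centre these enriched clusters near 0. It was 305 without the filter, 305 with DESeq2 and the same totals, 231 with the replicate block, and 219 to 303 with 1 library left out. The block changed no call among array clusters. The difference between array ends (-0.01) changed sign with reads per cluster in place of reads per base (0.12), in arrays of 3 or more (0.00090), with the log2 ratio (0.15) and without replicate 1 (0.01), and leaving out 1 replicate gave -0.0268 to 0.0053. The share of arrays whose strongest cluster was common to all libraries (63.2%) was 52.8% per base, 45.3% by log2 ratio and 67.9 to 80.2% with 1 replicate left out. The range of CLIP reads within arrays was 1.53 times per base and 1.92 to 2.00 without 1 replicate. The range of log2 ratios was 0.98 with input counts of 1 taken as 0, 0.93 with inputs above 1, 0.93 with no pseudocount and 0.90 to 1.00 without 1 replicate. The variance between genes was 84.2% per base, 58.1% in arrays of 3 or more and 65.0 to 66.6% without 1 replicate. The median gap was 157 bases when measured between centres. Among the 166 clusters with p under 0.05 in all 3 replicates that still formed arrays of 2 or more, in 58 genes, the median gap was 79.5 and the median width 89 bases. The excess of array over single clusters was 1.22 for the strongest cluster of each gene, a pick that by itself raises it, and 0.77 to 0.91 without 1 replicate. Wider clusters led in 97.3% of pairs at 1.5 times the width, 55.4% per base and 82.2 to 85.2% without 1 replicate. For the ratios of named genes, 228 of 228 alternative values lay within 1 SD. With 3 replicates, leaving out 1 cannot move a mean by 1 SD, so those settings could not fall outside. Nothing is read from this count. The comparison by width and the setting with no pseudocount were chosen after seeing the data. The cause of these shifts was not tested. Input counts of 1 or 2 limit every ratio.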
